A study of Mus musculus with 14 samples.

Results

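The genes described here encode the proteins of the splicing machinery that carry the family names SRSF, HNRNP, SF3A and SF3B, SNRP, U2AF and 7 RNA-binding proteins of the RBM series. They were chosen by symbol, as the protein-coding mouse genes whose names begin with Srsf and a digit, Hnrnp, Sf3a or Sf3b and a digit, Snrp or U2af, with Rbm5, Rbm10, Rbm17, Rbm22, Rbm25, Rbm38 and Rbm39 added. The rule uses symbols alone, but the members were chosen with earlier results of these data known. Of the 52636 gene identifiers in the count table, 62 were members: 11 of the SRSF family, 20 of HNRNP, 9 of SF3, 12 of SNRP, 3 of U2AF and 7 of RBM.

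Introns are removed by the spliceosome, which is built from small nuclear RNAs and proteins. U1 marks the start of the intron, the U2AF pair binds the end of it, and the SF3A and SF3B complexes hold U2 at the branch point. The Sm proteins, encoded by Snrpb, Snrpd1, Snrpd2, Snrpd3, Snrpe, Snrpf and Snrpg, form a ring on the small nuclear RNAs. SR proteins bind exons and mostly favour their inclusion, while hnRNP proteins coat the nascent transcript and often oppose it. In myeloid disease SF3B1, SRSF2 and U2AF1 are recurrently mutated, and RBM38 is known for a splicing switch of late red cell development.

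The libraries came from mice transplanted with I1DN leukemic cells, a mouse acute myeloid leukemia with mutant IDH1 according to the series title; the labels give neither the alleles of I1DN nor the strain, sex or age of the mice. All 5 groups carry this leukemia, including the vehicle groups, and the cells of every mouse were sorted for cKit and against CD11b. Mice received AG120, which is ivosidenib, an inhibitor of mutant IDH1, or its vehicle. After 5 days of dosing 3 mice of each arm were taken, and after 14 days 2 mice of each arm. A further 4 mice had completed 28 days of AG120 and were then followed to relapse. Relapse had no vehicle group of its own age and was set against the mean of both vehicle groups and the mean of both AG120 groups. RNA was read with QuantSeq 3′ mRNA sequencing, which counts transcripts near their polyadenylated end. Such counts give the level of a gene and do not show which exons its transcripts or those of its targets hold.

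Libraries held 4995738 to 8691708 counts, of which 50.9% to 74.8% fell on ribosomal RNA gene models, so that 1259982 to 3358874 counts remained for all other genes; AG120 day 14 replicate 1 was the shallowest. Levels are given as CPM, the count scaled to a common library size with TMM factors, and a difference is the log2 fold change with its standard error from edgeR's quasi-likelihood test, called where the Benjamini-Hochberg adjusted p over 11994 genes was under 0.05. Kit, the gene of the sorted marker cKit, stood at 35.6 ± 2.2 CPM under vehicle and 26.9 ± 5.34 under AG120 at day 5 (SD, n = 3 each), at 35.9 ± 1.24 and 11.6 ± 0.0229 at day 14 (SD, n = 2 each) and at 35.1 ± 18.5 in relapse (SD, n = 4). Itgam, the gene of CD11b, which the sort selected against, was detected in every group, with means of 3.13 CPM in AG120 day 5 to 29.7 CPM in relapse. Marker RNA of the blood lineages differed between the groups: the summed level of 25 erythroid markers was 181 to 250 CPM under vehicle and 1247 to 1436 CPM under AG120 at day 5, 224 to 268 and 2929 to 3265 CPM at day 14, and 114 to 586 CPM in relapse.

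Of the 62 members, 60 had enough counts to be tested, and each of these had at least 10 counts in every library, from 11 for U2af1l4 to 5590 for Hnrnpu. The other two were close to absent: Srsf12 had 1 count in AG120 day 5 replicate 1, 2 in AG120 day 5 replicate 3, 1 in vehicle day 14 replicate 2 and 1 in relapse replicate 4, and Snrpn, which is best known as an imprinted gene of neurons, had 1 count, in relapse replicate 2. Because the filter removed only these 2, it did not select members for their response. In the annotation 30 of the 62 members overlap another gene, 25 of them on the opposite strand. Whether counting used strand is not given in the sources used here, so reads of such pairs cannot be told apart; this concerns Srsf1, Srsf2, Srsf4, Hnrnpab, Hnrnpd, Hnrnpf, Hnrnph3, Hnrnpk, Hnrnpl, Hnrnpll, Hnrnpr, Hnrnpu, Sf3a2, Sf3b3, Sf3b4, Snrpa, Snrpd3, Snrpf, Snrpg, Snrpn, U2af1l4, Rbm5, Rbm10, Rbm25 and Rbm38.

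Promoter windows of 4 members are shown because these genes stand for the patterns described below: Sf3a2 and Hnrnpab were higher under AG120 on both days, Hnrnph3 was lower on both, and Rbm38 passed the test on neither. Each window runs from 250 bases before to 50 bases after the RefSeq start on GRCm38.p6, 5′ to 3′ on the gene's strand, at chr10:80798485-80798784 (plus strand) for Sf3a2, chr11:51606832-51607131 (minus) for Hnrnpab, chr10:63023800-63024099 (minus) for Hnrnph3 and chr2:173021652-173021951 (plus) for Rbm38. Capitals mark every match, on either strand, to 5 motifs that were searched: CACGTG, the E-box; AGATAA, bound by GATA factors; CCACNCCC, a KLF site; CCGGAAG, an ETS site; and CCAAT, the NF-Y box.
Sf3a2: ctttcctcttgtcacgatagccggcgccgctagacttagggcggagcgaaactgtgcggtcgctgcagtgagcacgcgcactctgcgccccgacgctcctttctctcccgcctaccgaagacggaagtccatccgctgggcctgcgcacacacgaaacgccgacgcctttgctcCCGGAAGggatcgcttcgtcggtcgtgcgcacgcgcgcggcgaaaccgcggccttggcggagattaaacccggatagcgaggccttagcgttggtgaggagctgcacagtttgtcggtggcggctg
Hnrnpab: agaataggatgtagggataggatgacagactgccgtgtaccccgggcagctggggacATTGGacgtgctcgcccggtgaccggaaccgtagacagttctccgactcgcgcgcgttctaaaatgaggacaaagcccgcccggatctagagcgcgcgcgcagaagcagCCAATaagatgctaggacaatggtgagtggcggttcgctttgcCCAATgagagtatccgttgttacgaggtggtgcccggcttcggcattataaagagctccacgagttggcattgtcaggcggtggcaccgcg
Hnrnph3: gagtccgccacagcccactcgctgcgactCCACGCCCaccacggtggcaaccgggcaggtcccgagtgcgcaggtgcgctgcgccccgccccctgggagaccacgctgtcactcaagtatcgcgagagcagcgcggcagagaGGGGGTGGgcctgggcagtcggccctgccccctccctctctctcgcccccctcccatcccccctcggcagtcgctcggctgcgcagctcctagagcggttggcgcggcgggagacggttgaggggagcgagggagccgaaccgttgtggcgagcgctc
Rbm38: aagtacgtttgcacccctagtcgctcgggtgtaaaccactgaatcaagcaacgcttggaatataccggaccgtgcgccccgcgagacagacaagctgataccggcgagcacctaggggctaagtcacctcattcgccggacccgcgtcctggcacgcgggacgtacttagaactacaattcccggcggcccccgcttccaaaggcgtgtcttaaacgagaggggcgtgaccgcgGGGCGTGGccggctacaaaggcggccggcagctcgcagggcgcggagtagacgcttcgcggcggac
The Sf3a2 window holds 1 CCGGAAG match, that of Hnrnpab 3 CCAAT matches, that of Hnrnph3 2 CCACNCCC matches and that of Rbm38 1 CCACNCCC match. Windows were found for 54 members, 73 windows in all. CCGGAAG lay in 28.8% of the member windows and in 8.86% of all 32851 windows, and CCAAT in 45.2% and 37.4%. For the other motifs the shares were 9.59% and 7.15% for CACGTG, 6.85% and 11.2% for AGATAA, and 15.1% and 17.6% for CCACNCCC. A match is only a stretch of letters in the window, and binding was not measured.

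In AG120 day 5 against vehicle day 5, most members were higher, and by small amounts. Of the 60 tested, 32 rose and 2 fell, beside 20.1% of all genes tested that rose and 19.3% that fell. The estimate was above 0 for 56 of the 60, with a median log2 difference of 0.39, whereas the median over all 11994 genes was -0.00. Only 1 member, Hnrnpll, passed the test with a change over 2-fold, beside 19.2% of all genes. The libraries of the groups did not overlap for 45 members that were higher and 3 that were lower, beside 30.1% and 29.8% of all genes. Summed over all members the level was 8521 ± 230 CPM in vehicle day 5 (SD, n = 3) and 10828 ± 209 CPM in AG120 day 5 (SD, n = 3). With 1 mouse left out the count of 32 was lower: it was 19 without AG120 day 5 replicate 2, 16 without AG120 day 5 replicate 3, 15 without vehicle day 5 replicate 1 and 16 without vehicle day 5 replicate 2, and 11 of the 32 passed under every alternative tried.

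Marker RNA of several blood cell types moved with these gains. Of the 25 erythroid markers, 19 rose at day 5 and 22 at day 14, beside 20.1% and 16.8% of all genes. None was at 0 in all libraries of any group. Granulocyte and monocyte markers summed to 1344 to 2160 CPM in vehicle day 5 and 494 to 536 CPM in AG120 day 5, megakaryocyte markers to 407 to 506 and 51.3 to 77.9 CPM, and stem and progenitor markers to 343 to 364 and 51.4 to 61.3 CPM. At day 5, 9 of 17 tested granulocyte and monocyte and 6 of 9 megakaryocyte markers fell, beside 19.3% of all genes. So did 3 of 5 mast cell and basophil, 2 of 2 lymphoid and 3 of 4 stem and progenitor markers. At day 14 these counts were 4, 2 (with 1 that rose), 4, 2 and 4, beside 17.9% of all genes. The shares of the first 2 lists, 23.5% and 22.2%, lay near that, and 7 of 17 granulocyte and monocyte estimates were above 0. Granulocyte and monocyte markers summed to 2122 to 2215 CPM in vehicle day 14 and 1468 to 1886 CPM in AG120 day 14. Megakaryocyte markers summed to 408 to 430 and 125 to 127 CPM. The part of these shifts in the members' levels was not tested. In such bulk samples fewer cells of a type and less RNA per cell cannot be told apart.

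**Figure D1:**
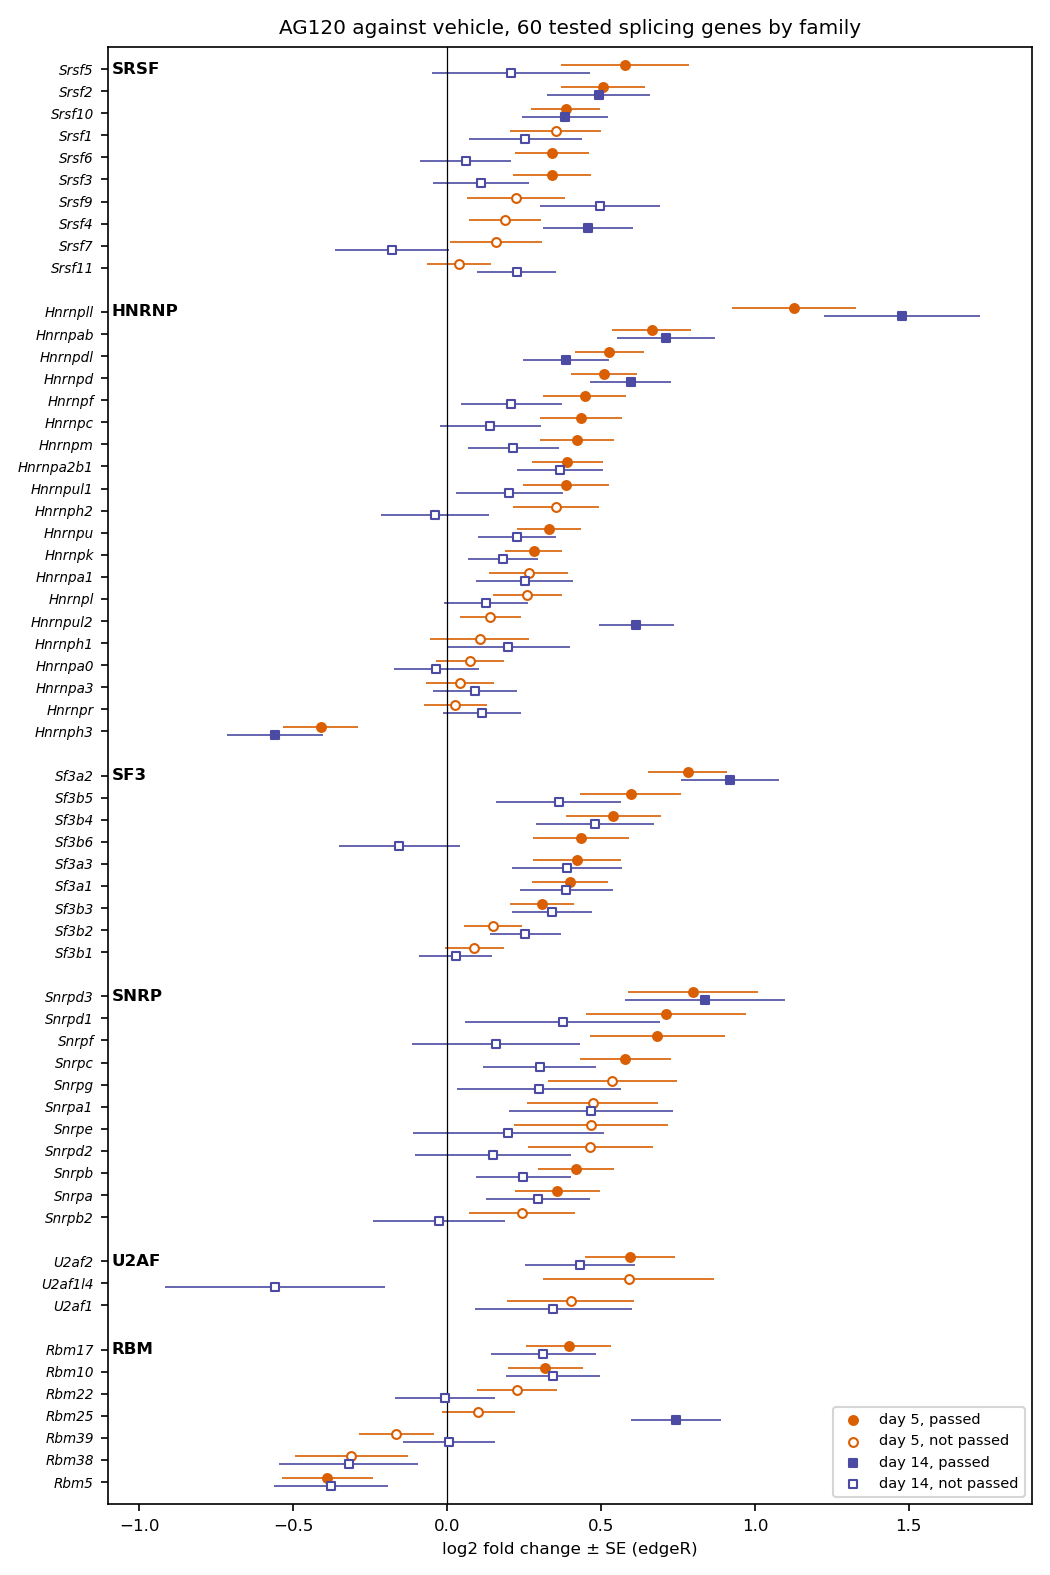
Log2 difference, AG120 minus vehicle, of the 60 tested members by family, at day 5 (3 mice against 3) and at day 14 (2 against 2). Points are members with bars of 1 standard error, and filled points passed the edgeR test; at day 5 nearly all points lie right of 0, with Hnrnpll the farthest at 1.13 and Hnrnph3 and Rbm5 on the left.

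Among the SR proteins, 5 of 10 tested rose at day 5 and none fell (median log2 difference 0.34), beside 20.1% and 19.3% of all genes. Srsf2, which binds exonic enhancers and is a gene of recurrent mutation in myeloid disease, had 183, 173 and 194 CPM in the vehicle libraries of day 5 and 255, 255 and 271 CPM in the AG120 libraries. The groups did not overlap, and the log2 difference was 0.51 ± 0.14 (edgeR, adjusted p = 0.0074). Srsf5 read 104, 81.7 and 81.3 CPM under vehicle and 129, 144 and 126 under AG120. This was the largest estimate of the family, 0.58 ± 0.21 (adjusted p = 0.037), but leaving out any library other than vehicle day 5 replicate 1 ended the call. Srsf10, an SR protein that can repress splicing, went from 73.0, 62.7 and 71.8 to 89.4, 92.7 and 88.8 CPM (0.39 ± 0.11, adjusted p = 0.012), a call lost without vehicle day 5 replicate 2 (adjusted p = 0.071). Srsf3 and Srsf6 also rose, both by 0.34, with calls lost in 9 and 6 of 14 alternatives. Srsf1, the founding SR protein, did not overlap between the groups either, at 236, 250 and 272 CPM against 291, 350 and 327, and did not pass (0.35 ± 0.15, adjusted p = 0.071).

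The HNRNP family had 11 members that rose and 1 that fell among 20 (median 0.34), beside 20.1% and 19.3% of all genes. Hnrnpll, an hnRNP L relative known for the exon choice of CD45 in lymphocytes, had the largest change of all members. Its level was 7.40, 6.52 and 6.93 CPM in the vehicle libraries and 14.9, 13.4 and 17.1 CPM in the AG120 libraries, with no overlap (1.13 ± 0.20, adjusted p = 0.00033). Hnrnpab, an hnRNP of the A/B type, rose from 330, 337 and 350 to 526, 549 and 535 CPM (0.66 ± 0.13, adjusted p = 0.00066). In both genes every treated library lay above every vehicle library. Hnrnpdl, a relative of Hnrnpd, rose from 90.3, 87.4 and 87.8 to 126, 117 and 140 CPM (0.53 ± 0.11, adjusted p = 0.0014), and Hnrnpd itself, which is also known as AUF1 and binds AU-rich transcripts, from 168, 162 and 158 to 218, 232 and 245 CPM (0.51 ± 0.11, adjusted p = 0.0013). The other 7 that rose, namely Hnrnpk, Hnrnpu, Hnrnpul1, Hnrnpa2b1, Hnrnpm, Hnrnpc and Hnrnpf, had estimates of 0.28 to 0.45. Of 14 alternatives, their calls were lost in 6, 4, 10, 1, 1, 2 and 3, in that order.

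Hnrnph3 went the other way. It read 29.3, 33.9 and 35.4 CPM under vehicle at day 5 and 26.2, 23.7 and 24.4 CPM under AG120, and fell by 0.41 ± 0.12 on the log2 scale (adjusted p = 0.013). All treated libraries lay below all vehicle libraries, but the adjusted p was 0.052 when AG120 day 5 replicate 2 was left out and 0.060 when vehicle day 5 replicate 3 was. Its relatives Hnrnph1 and Hnrnph2, which bind G-rich runs like Hnrnpf, did not pass: Hnrnph1 had 98.8, 85.9 and 80.8 CPM under vehicle and 103, 87.9 and 94.7 under AG120, which overlap. Hnrnph2 had 24.1, 24.9 and 26.7 CPM against 31.1, 33.1 and 32.6, which do not (0.35 ± 0.14, adjusted p = 0.053). Its adjusted p was 0.049 with limma-voom, 0.044 with the replicate block and 0.0071 when only the groups of day 5 were fitted.

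The SF3 genes had the largest share of members that rose at day 5, 7 of 9 (median 0.42), beside 20.1% of all genes. At day 14, 1 of 9 rose, 11.1% beside 16.8% of all genes. Sf3a2, a subunit of the SF3A complex that joins U2 at the branch point, had 29.8, 30.5 and 37.6 CPM in the vehicle libraries and 54.5, 58.0 and 56.1 CPM in the AG120 libraries (0.78 ± 0.13, adjusted p = 0.00015). The groups were well apart, and this was the smallest adjusted p of any member at day 5. Sf3b5 rose from 24.3, 30.5 and 31.8 to 41.3, 44.5 and 45.5 CPM (0.60 ± 0.16, adjusted p = 0.0083), and Sf3b4 from 16.2, 15.3 and 15.4 to 23.0, 20.8 and 24.3 CPM (0.54 ± 0.15, adjusted p = 0.011). Sf3b5 and Sf3b4 encode small SF3B subunits. Sf3b1, the largest subunit and the one mutated in myelodysplasia, stood at 169, 154 and 164 CPM under vehicle and at 170, 180 and 169 CPM under AG120. Its estimate of 0.09 ± 0.10 did not pass (adjusted p = 0.49). Sf3b2 was the other SF3 gene that did not pass. Of 14 alternatives, the calls of Sf3a1, Sf3a3, Sf3b3 and Sf3b6 at day 5 were lost in 4, 5, 7 and 8. Those of Sf3a2, Sf3b4 and Sf3b5 were kept in every alternative.

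Of the 11 SNRP genes tested, 6 rose and none fell at day 5 (median 0.47), beside 20.1% and 19.3% of all genes. In the Sm ring 4 of 7 rose (median 0.54). Snrpd3, an Sm protein, had 256, 264 and 275 CPM in vehicle and 464, 423 and 495 CPM in AG120 libraries, with no overlap (0.80 ± 0.21, adjusted p = 0.0079). Snrpd1 rose from 199, 223 and 256 to 377, 361 and 372 CPM (0.71 ± 0.26, adjusted p = 0.044), and Snrpf from 52.0, 59.3 and 66.8 to 65.1, 119 and 102 CPM (0.68 ± 0.22, adjusted p = 0.023). The Snrpf groups overlapped, since AG120 replicate 1 lay below vehicle replicate 3, and the Snrpf call was lost in 5 of 14 alternatives. The call of Snrpd1 was lost without any one of the 6 libraries, at adjusted p of 0.058 to 0.129. Snrpc, which encodes the U1-C protein of U1, rose by 0.58 (adjusted p = 0.0053) and kept its call in every alternative. Snrpa and Snrpb also rose, with calls lost in 12 and 3 of 14 alternatives.

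U2af2, the large U2AF subunit that reads the polypyrimidine tract, was flat within groups and apart between them, at 93.8, 94.6 and 94.9 CPM under vehicle and 140, 145 and 143 CPM under AG120 (0.59 ± 0.15, adjusted p = 0.0040). Its partner U2af1, which reads the AG at the end of the intron, was at 199, 221 and 232 CPM and 287, 295 and 280 CPM. Every treated library was above every vehicle library, yet the estimate of 0.40 ± 0.21 did not pass (adjusted p = 0.14). It passed when only the 2 groups of day 5 were fitted (adjusted p = 4.6e-05) and with no filter on low counts (0.36, adjusted p = 0.042). U2af1l4, a shorter relative of U2af1, was the member with the fewest counts and did not pass either (0.59 ± 0.28, adjusted p = 0.10).

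Of the 7 RBM genes 2 rose, 1 fell and 4 did not pass at day 5 (median 0.10), shares of 28.6% and 14.3% that lie near the 20.1% and 19.3% of all genes. Rbm17, known as SPF45, rose by 0.39 ± 0.14 (adjusted p = 0.030), and Rbm10 by 0.32 ± 0.12 (adjusted p = 0.048); of 14 alternatives, the call of Rbm17 was lost in 6 and that of Rbm10 in 11. Rbm5, a close relative of Rbm10 that regulates exons of apoptosis genes, had 109, 92.4 and 80.6 CPM under vehicle and 80.3, 66.9 and 67.7 CPM under AG120, and fell by 0.39 ± 0.15 on the log2 scale (adjusted p = 0.046). The lowest vehicle library was only just above the highest treated one, and Rbm5 no longer passed when replicate 2 or 3 of AG120 day 5 was left out (adjusted p = 0.142 and 0.137), or replicate 1 or 2 of its vehicle group (0.207 and 0.089).

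Rbm38 did not rise with the erythroid markers. It read 101, 84.8 and 103 CPM in vehicle day 5, 69.8, 88.4 and 74.3 CPM in AG120 day 5, 107 and 115 CPM in vehicle day 14, 78.8 and 98.5 CPM in AG120 day 14, and 89.9, 127, 101 and 66.4 CPM in relapse. The treated libraries overlapped with vehicle at day 5 and lay below it at day 14, with estimates of -0.31 ± 0.18 (adjusted p = 0.19) and -0.32 ± 0.23 (adjusted p = 0.29), neither of which passed. When only the groups compared were fitted, the day 5 estimate was -0.33 and passed (adjusted p = 0.0029). Of the transcripts linked to RBM38 in the literature, Epb41, a gene of the red cell membrane skeleton with an exon switch that RBM38 takes part in, rose by 0.52 ± 0.16 at day 5 (adjusted p = 0.0172) and by 0.90 ± 0.20 at day 14 (adjusted p = 0.0024); its exons were not resolved here. Cdkn1a, the p21 gene, whose RNA is a known RBM38 target, fell by 1.63 on the log2 scale after 5 days (adjusted p = 4.43e-05) and was at -2.51 after 14 (adjusted p = 2.45e-05), passing both times. Trp53, whose translation RBM38 is known to restrain, rose by 0.74 ± 0.13 at day 5 (adjusted p = 0.000202) and did not pass at day 14 (0.10 ± 0.16, adjusted p = 0.653), and its difference between the days did not pass (-0.64 ± 0.20, adjusted p = 0.178).

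**Figure D2:**
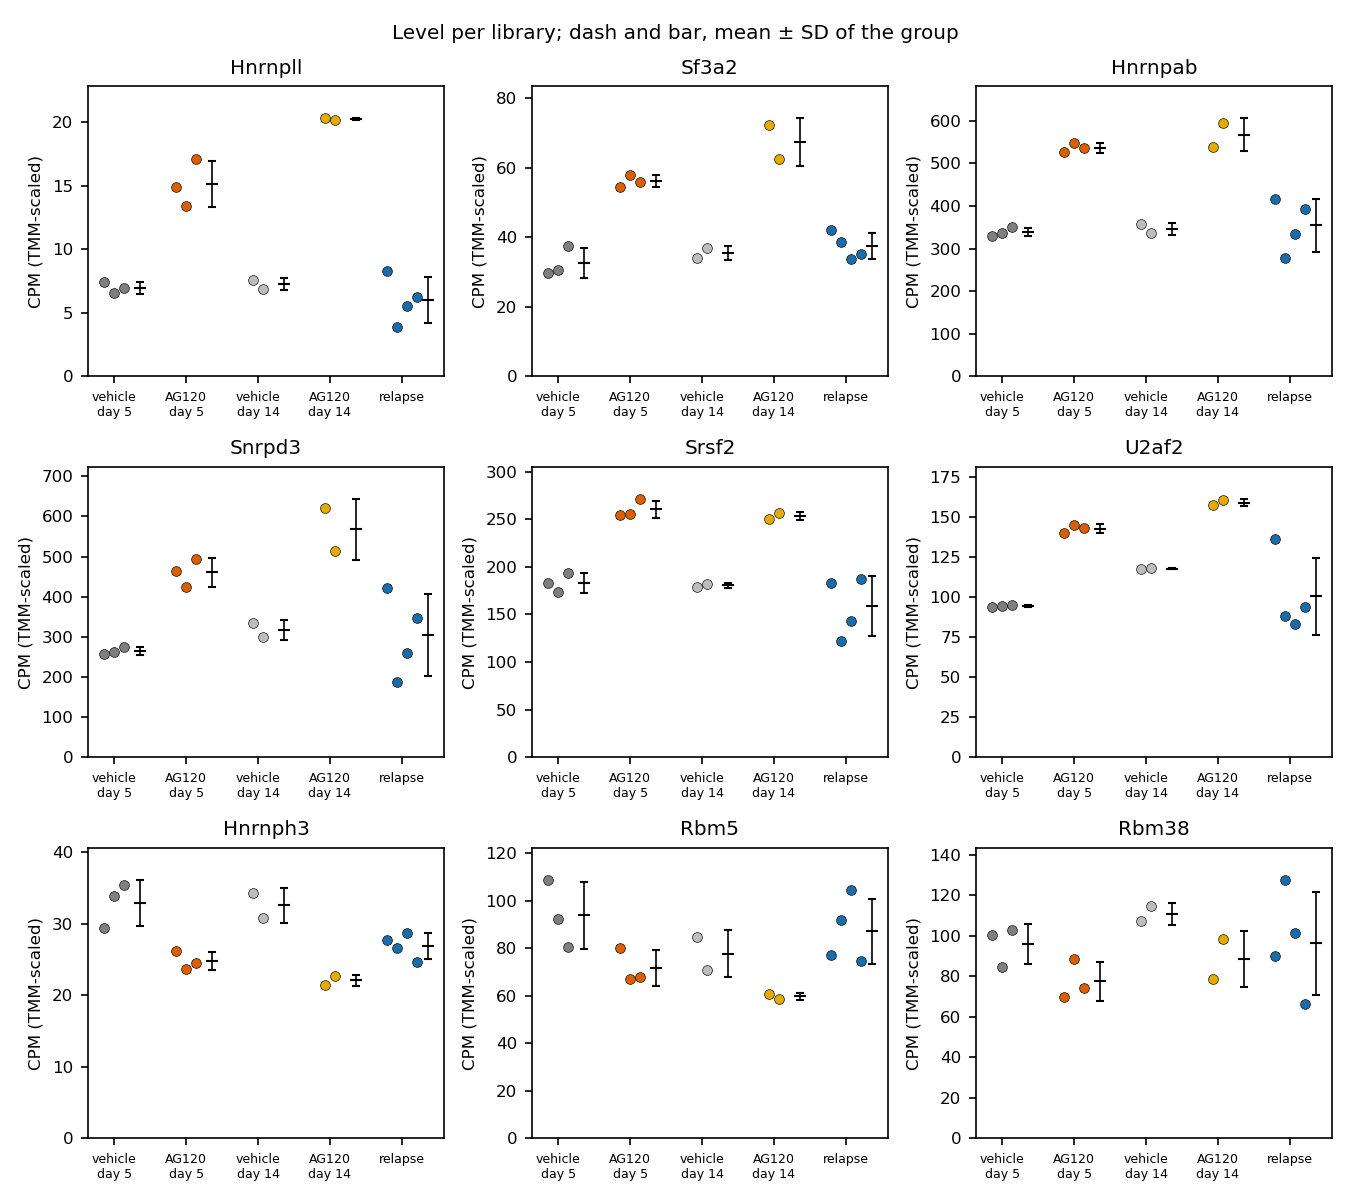
Level in CPM of 9 members in each of the 14 libraries, by group, with the mean and SD beside the points and axes that start at 0. Hnrnpll, Sf3a2, Hnrnpab and Snrpd3 are higher in both AG120 groups than in vehicle, Hnrnph3 is lower in both AG120 groups, Rbm38 is not higher in either, and the 4 relapse libraries of Snrpd3 run from 189 to 423 CPM.

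At day 14 the same comparison called fewer members, 11 higher and 1 lower of 60, beside 16.8% of all genes tested that rose and 17.9% that fell. The share of members that rose, 18.3%, is near that of all genes. By family, 3 of 10 SRSF, 5 of 20 HNRNP, 1 of 9 SF3, 1 of 11 SNRP, 0 of 3 U2AF and 1 of 7 RBM genes rose. The estimates were above 0 for 50 members, with a median of 0.25 against -0.01 for all genes. Hnrnpll was again the only member to pass with a change over 2-fold, beside 21.1% of all genes. The groups did not overlap for 36 members that were higher and 3 that were lower, beside 34.2% and 36.3% of all genes. Summed over members, vehicle day 14 had 8867 ± 57.2 CPM (SD, n = 2) and AG120 day 14 had 10867 ± 481 CPM (SD, n = 2). With 2 mice a group the standard errors were larger, with a median of 0.16 against 0.13 at day 5. The 11 became 6 without AG120 day 14 replicate 1 and 7 without vehicle day 14 replicate 1, and 6 of the 11 passed under every alternative tried.

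Both days, which share no library, called 8 members higher: Srsf2, Srsf10, Hnrnpab, Hnrnpd, Hnrnpdl, Hnrnpll, Sf3a2 and Snrpd3. This is 25% of the members called at day 5 and 72.7% of those called at day 14. The share of all genes called higher on both days was not computed, so the 8 cannot be set against a background. Hnrnpll had 7.62 and 6.91 CPM in vehicle day 14 and 20.3 and 20.2 CPM in AG120 day 14 (1.48 ± 0.25, adjusted p = 0.00025). Sf3a2 read 34.1 and 36.9 against 72.2 and 62.4 CPM (0.92 ± 0.16, adjusted p = 0.00028), and Hnrnpab 356 and 336 against 539 and 594 CPM (0.71 ± 0.16, adjusted p = 0.0023). None of the 3 overlapped between the groups. Snrpd3 was the SNRP gene that passed, at 335 and 300 against 621 and 514 CPM (0.84 ± 0.26, adjusted p = 0.021), though leaving out replicate 1 of the treated mice (adjusted p = 0.129) or either vehicle mouse (0.070 and 0.128) ended the call. Srsf2, at 178 and 182 against 251 and 257 CPM, was 0.49 ± 0.17 higher (adjusted p = 0.031), a call lost without any one of the 4 libraries. The calls of Srsf10 and Hnrnpdl at day 14 were each lost in 7 of 12 alternatives.

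The 3 members called higher at day 14 and not at day 5 were Hnrnpul2, Srsf4 and Rbm25. Rbm25, which binds the U1 snRNP and favours weak splice sites, had 190 and 182 CPM in vehicle day 14 and 341 and 282 CPM in AG120 day 14 (0.74 ± 0.15, adjusted p = 0.00085), whereas at day 5 it read 246, 251 and 241 against 296, 243 and 253 CPM. The treated libraries of day 5 overlapped with vehicle (0.10 ± 0.12, adjusted p = 0.53). The vehicle level of Rbm25 was itself lower on day 14, by 0.41 on the log2 scale without passing, and passed when only the vehicle groups were fitted (-0.40, adjusted p = 0.0057). Hnrnpul2, an hnRNP U relative, had 140 and 134 against 212 and 208 CPM at day 14 (0.62 ± 0.12, adjusted p = 0.00095). At day 5 it had 165, 158 and 164 against 185, 175 and 176 CPM (0.14 ± 0.10, adjusted p = 0.28). The vehicle level of Hnrnpul2 was also lower on day 14, without overlap between the vehicle groups and without passing. Srsf4, an SR protein of the longer kind, had 49.2 and 41.6 against 61.8 and 62.8 CPM (0.46 ± 0.15, adjusted p = 0.023), a call lost in 4 of 12 alternatives. Hnrnph3 was the only member that fell, with 34.3 and 30.8 against 21.5 and 22.6 CPM (-0.56 ± 0.16, adjusted p = 0.011). Without AG120 day 14 replicate 1 its adjusted p was 0.063, and without vehicle day 14 replicate 1 it was 0.075.

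Snrpd1 and U2af1 differed between the 2 mice of AG120 day 14. Snrpd1 had 255 CPM in replicate 1 and 378 in replicate 2, beside 229 and 260 in vehicle, and U2af1 had 213 and 337 CPM beside 192 and 242. For both genes replicate 1 lay within the range of the vehicle libraries and replicate 2 above it, whereas Snrpd3 was higher in replicate 1. Neither of the former passed (Snrpd1 0.38 ± 0.32; U2af1 0.35 ± 0.26, adjusted p = 0.32). Ribosomal RNA took 74.8% of replicate 1 and 63.1% of replicate 2; whether this bears on the gap was not tested.

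When the difference between the days in the effect of AG120 was itself tested, no member passed with edgeR, beside 0.208% of all genes called higher and 0.725% called lower. At an unadjusted p under 0.05 there were 2 members higher and 2 lower, with no share of all genes computed at that threshold. Limma-voom called 0, and DESeq2 called 2 higher, Rbm25 (adjusted p = 0.0325) and Hnrnpul2 (adjusted p = 0.0285). The edgeR difference for Rbm25 was 0.64 ± 0.19 (adjusted p = 0.14), and it passed when only the 4 groups of days 5 and 14 were fitted (adjusted p = 0.0022). The most negative estimate was that of U2af1l4, -1.15 ± 0.45 (adjusted p = 0.29), on few counts. No member passed between the vehicle groups of days 5 and 14 either, with 0% of all genes called in each direction. DESeq2 and limma-voom also called 0. At an unadjusted p under 0.05, 2 members were higher and 4 lower, again with no share of all genes computed. The 2 vehicle groups did not overlap for 24 members that were higher at day 14 and 6 that were lower, beside 15.2% and 16% of all genes.

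In relapse no member passed the test against vehicle. The estimate was above 0 for 20 of the 60 members, beside 6334 of all 11994 genes. Against the mean of both vehicle groups, edgeR called none of the 60, beside 0.1% of all genes called higher and 0.0834% lower. The median estimate was -0.07, against 0.02 for all genes. At an unadjusted p under 0.05 no member was higher and 8 were lower. The share of all genes under that threshold was not computed, so the 8 cannot be set against a background. Limma-voom called 0, and DESeq2 called 1 lower, Hnrnpc (adjusted p = 0.0034). Hnrnpc, an hnRNP core protein that measures transcript length, had 122, 89.1, 98.5 and 115 CPM in relapse, 138, 154 and 153 CPM in vehicle day 5 and 156 and 159 CPM in vehicle day 14. All relapse libraries lay below all vehicle libraries, and the edgeR estimate was -0.53 ± 0.11 (adjusted p = 0.062), which passed without relapse replicate 1 (adjusted p = 0.026). Hnrnph3 and Hnrnpk were the other members whose relapse libraries all lay below the vehicle libraries, 3 of 60 beside 1.97% of all genes; no member lay wholly above, beside 1.98%.

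Against the mean of both AG120 groups, relapse was lower for 40 members and higher for 1, beside 26.1% and 27.9% of all genes (median -0.41 against 0.01). Of the 40, 26 passed under every alternative. The libraries did not overlap for 27 members that were lower and 0 that were higher, beside 18.9% and 18.3% of all genes. By family, 6 of 10 SRSF, 13 of 20 HNRNP, 7 of 9 SF3, 9 of 11 SNRP, 2 of 3 U2AF and 3 of 7 RBM genes were lower, and all 7 Sm genes were among them. Hnrnpll had 8.31, 3.92, 5.50 and 6.23 CPM in relapse, below every AG120 library (-1.55 ± 0.18, adjusted p = 1.7e-06). Others called lower were Hnrnpc (-0.82 ± 0.11, adjusted p = 1.5e-05), Sf3a2 (-0.72 ± 0.11, adjusted p = 3.2e-05) and Srsf2 (-0.69 ± 0.11, adjusted p = 8.4e-05). Snrpa1, the U2-A′ gene, had the largest estimate after Hnrnpll and read 38.7, 19.96, 22.6 and 40.3 CPM (-0.88 ± 0.18, adjusted p = 0.00080). Rbm5 was the one that rose, at 77.3, 91.9, 104 and 74.8 CPM beside 58.8 to 80.3 CPM under AG120 (0.41 ± 0.12, adjusted p = 0.010). U2af1 was lower by an estimate of -0.62 ± 0.17 (adjusted p = 0.0074), but not without AG120 day 14 replicate 2 (adjusted p = 0.056). Rbm38 did not pass in this comparison (0.21 ± 0.15, adjusted p = 0.25), but did without relapse replicate 4 (0.36, adjusted p = 0.028). The comparisons of relapse with AG120 and of AG120 with vehicle share the AG120 libraries.

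**Figure D3:**
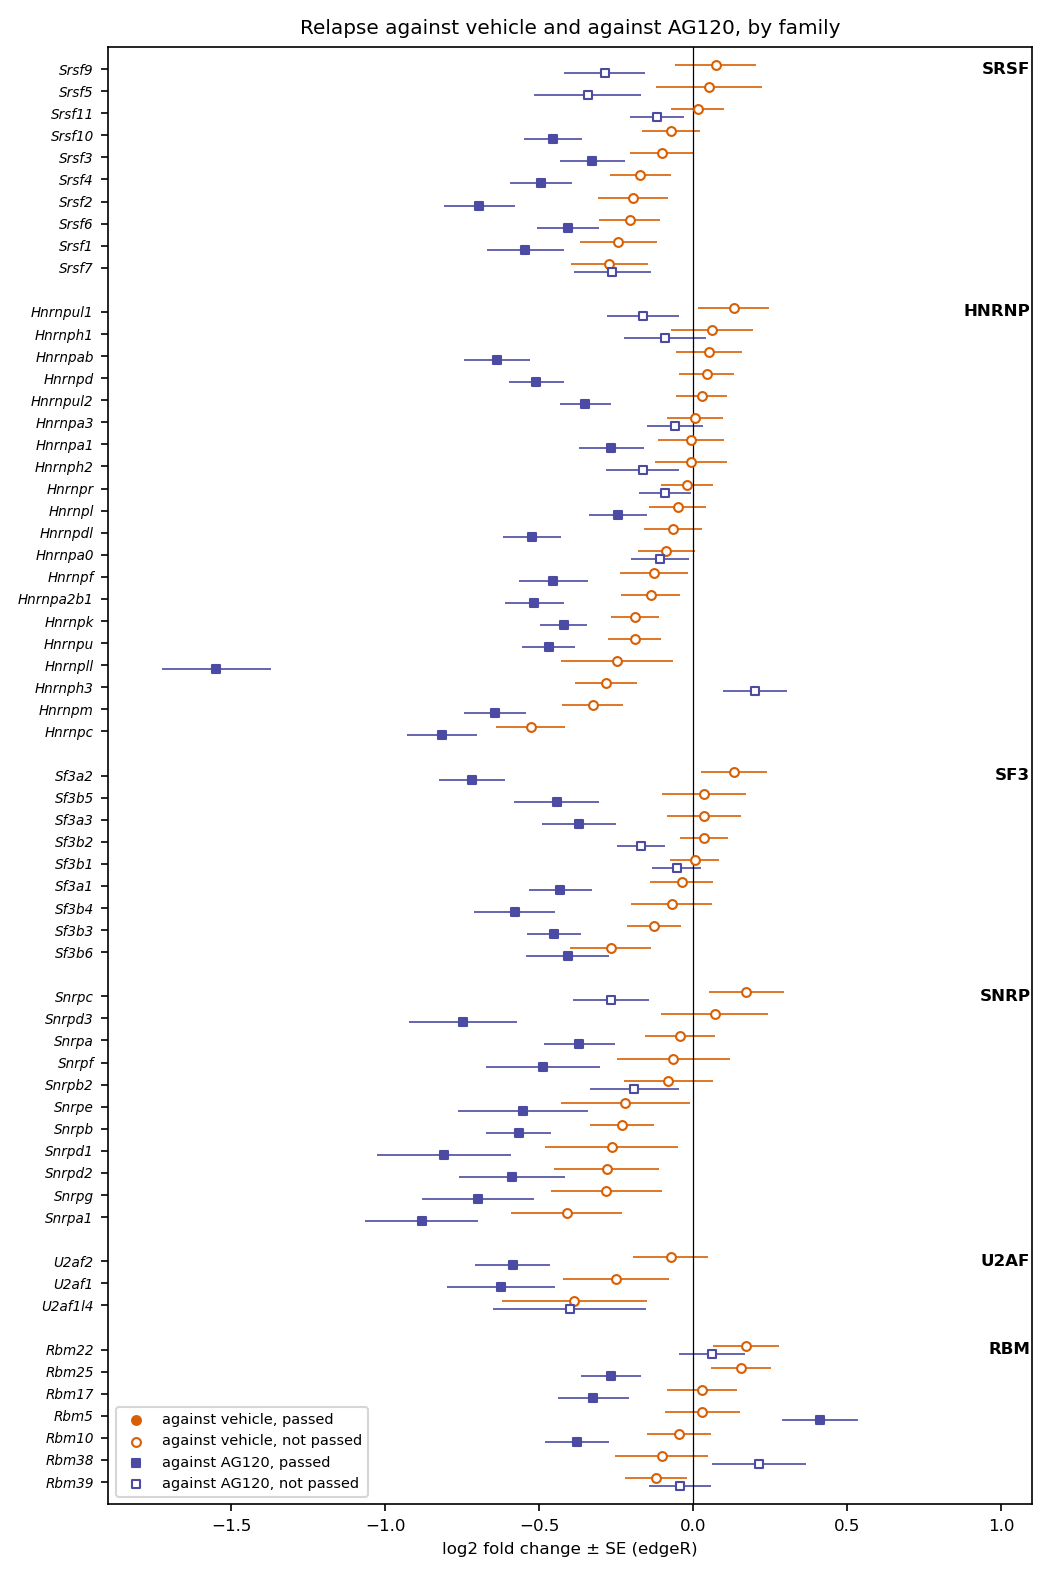
Log2 difference of relapse (4 mice) from the mean of both vehicle groups and from the mean of both AG120 groups for the 60 tested members by family, with bars of 1 standard error; filled points passed the edgeR test. Against vehicle no member passed, and 20 of the 60 points lie right of 0. Against AG120 40 lie left of 0 as filled points, with Hnrnpll at -1.55 and Rbm5 at 0.41 on the right.

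The 4 relapse mice were not alike. The summed SNRP level was 1255, 656, 840 and 1163 CPM in relapse replicates 1 to 4, that of SRSF 1194, 945, 1069 and 1226, and that of U2AF 355, 212, 249 and 330. Replicates 2 and 3 were the low ones in these 3 families. They were also the low ones in HNRNP (4503, 3985, 3817 and 4264 CPM) and SF3 (808, 759, 739 and 804 CPM). The RBM sum was 785, 808, 874 and 732 CPM and highest in replicates 2 and 3. Of the 60 members, the lowest of the 4 libraries was replicate 2 for 24 and replicate 3 for 25. For all 11 SNRP genes it was one of these (8 and 3). The ranks were not computed for all genes, so these counts have no background. Over all genes tested, log2 CPM correlated by 0.972 between replicates 1 and 4 and by 0.957 between 2 and 3. The other pairs lay at 0.920 to 0.935. Snrpd1 had 255, 108, 166 and 253 CPM and U2af1 215, 121.0, 162 and 232 CPM, both lowest in replicates 2 and 3. The same 2 libraries had more megakaryocyte marker RNA, 567 and 519 CPM against 175 and 186 CPM in replicates 1 and 4, more erythroid marker RNA, 217 and 586 against 114 and 117 CPM, more stem and progenitor marker RNA, 512 and 382 against 302 and 257 CPM, and less granulocyte and monocyte marker RNA, 1865 and 824 against 2991 and 2050 CPM. Their part in the members' levels was not tested. The SF3 family spread less, from 739 to 808 CPM over the 4 mice.

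**Figure D4:**
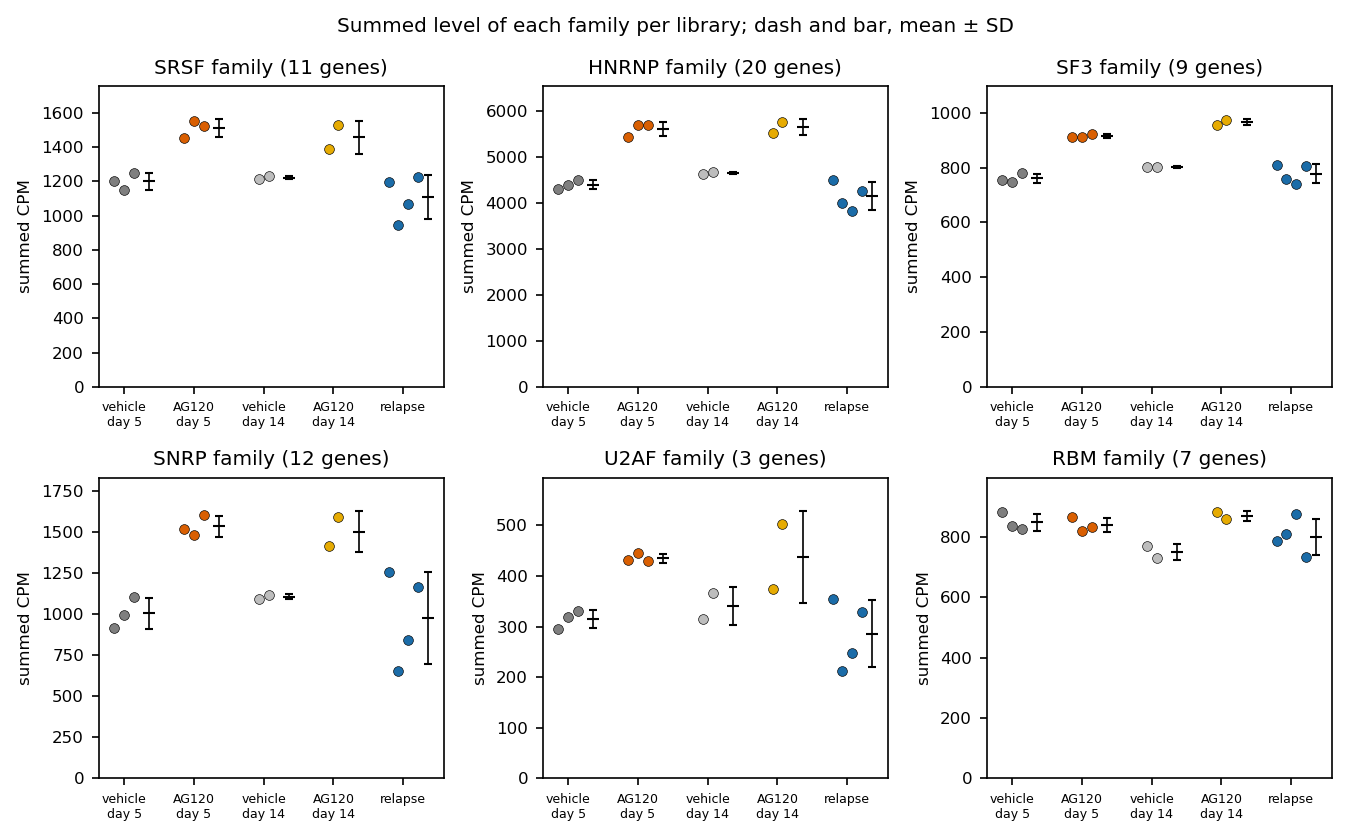
Summed level in CPM of each family in each library, by group, with the mean and SD beside the points and axes that start at 0. Sums of SRSF, HNRNP, SF3 and SNRP lie higher in every AG120 library than in every vehicle library, the RBM sum overlaps between the groups at day 5 and is higher under AG120 at day 14 (858 and 881 against 730 and 769 CPM), and the SNRP sum of relapse runs from 656 to 1255 CPM.

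The remaining genes of the splicing machinery were described with 9 lists of 131 tested genes. At day 5, 54 rose and 8 fell (41.2% and 6.11%, median 0.28), beside 20.1% and 19.3% of all genes, and at day 14, 48 rose and 7 fell (36.6% and 5.34%, median 0.32), beside 16.8% and 17.9%. These shares of all genes stand behind every list count that follows. The U4/U6.U5 tri-snRNP proteins, which activate the spliceosome, had 14 of 18 that rose at day 5 (median 0.49) and 12 of 18 at day 14 (median 0.70), with none that fell. Prpf3, a U4/U6 protein, rose by 0.75 ± 0.14 and 0.99 ± 0.18 (adjusted p = 0.000592 and 0.000471), and the U5 helicase gene Ddx23 by 0.48 ± 0.15 and 1.12 ± 0.18 (adjusted p = 0.017 and 0.00018). In relapse against AG120, 16 of the 18 tri-snRNP genes were lower, 88.9% beside 26.1% of all genes.

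Genes that assemble snRNPs had 11 of 18 that rose at day 5 (median 0.54) and 5 at day 14 (median 0.39). Gemin5, which recognises small nuclear RNAs for the SMN complex, had 14.3 ± 3.39 CPM in vehicle day 5 (SD, n = 3) and 30.8 ± 1.22 CPM in AG120 day 5 (SD, n = 3), and rose by 1.103 ± 0.20 (adjusted p = 0.000406). Gemin8, of the same complex, rose by 1.20 ± 0.27 at day 5 (adjusted p = 0.00245) and did not pass at day 14 (-0.17 ± 0.36, adjusted p = 0.744; difference between the days adjusted p = 0.199). In the LSM list, whose proteins form the ring on U6 and on decaying messenger RNA, 3 of 7 rose at day 5 and 2 at day 14. Lsm7 had 41.6 ± 3.79 CPM in vehicle day 5 (SD, n = 3) and 92.2 ± 9.79 CPM in AG120 day 5 (SD, n = 3), a rise of 1.15 ± 0.20 (adjusted p = 0.000358). In the PRP19 and related list 6 of 18 rose and 1 fell at day 5, and 7 rose and 1 fell at day 14, with Bcas2 at 0.87 and 0.89 and Slu7 at -0.44 and -0.52. Splicing helicases had 3 and 5 of 10 that rose and none that fell.

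Lists of regulators were mixed. Among U1 proteins and early partners 3 of 12 rose and 1 fell at day 5, and 5 rose and 1 fell at day 14. The 25% that rose at day 5 lie near the 20.1% of all genes. The one that fell was Tia1, which binds U-rich stretches beside weak splice sites (-1.18 ± 0.22 and -1.21 ± 0.28, adjusted p = 0.000579 and 0.00338). SR kinases and related genes had 4 of 17 that rose and 2 that fell on each day, 23.5% and 11.8%, which is near the shares of all genes (20.1% and 19.3% at day 5, 16.8% and 17.9% at day 14), with the SR kinase gene Srpk2 at -0.74 and -0.94. Of 22 other regulators 10 rose and 3 fell at day 5, and 6 rose and 2 fell at day 14. Celf1 rose by 0.57 and 0.94, while Celf2, its paralogue, stood at 212 ± 7.71 CPM under vehicle and 66.9 ± 6.64 under AG120 at day 5 (SD, n = 3 each), at 208 ± 9.44 and 25.1 ± 1.59 at day 14 (SD, n = 2 each) and at 266 ± 49.6 in relapse (SD, n = 4). The log2 difference of Celf2 was -1.67 after 5 days (adjusted p = 1.36e-07) and -3.05 after 14 (adjusted p = 8.69e-09), and it was the one gene of the 131 whose change differed between the days (-1.38 ± 0.23, adjusted p = 0.00855). Mbnl2, of the muscleblind family, was at -0.85 and -0.68 and passed on both days. The 9 proteins of the minor spliceosome, which removes a rare class of introns, had none that rose and 1 that fell at day 5 (median -0.24), and 2 that rose and 1 that fell at day 14 (median 0.08). The one that fell on both days was Snrnp25 (-0.83 ± 0.14 and -1.11 ± 0.18, adjusted p = 0.000204 and 0.000158).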

How the data were processed

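RNA of sorted leukemic progenitors was counted in 14 libraries, 1 per mouse per the labels' protocols. The authors deposited raw counts per gene identifier in 1 table. The submitters' processing notes name bcl2fastq 2.17.1.14, cutadapt 1.14, HISAT2 2.1.0, featureCounts from Subread 1.6.3, limma 3.42.2 and edgeR 3.28.1 on R 3.6.2, with mm10 as the build; the use of strand, of reads with several matches and of molecular identifiers is not given in the sources used here. A 3′ count of a gene holds reads of its polyadenylated ends and of copies or overlapping genes that share them.

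Symbols and positions were added by identifier from a GRCm38 gene annotation (52489 of 52636 identifiers). The 5 genes whose symbols match the patterns but that are not annotated as protein-coding were left out. Genes passing filterByExpr (minimum count 10) were fitted in R 4.3.3 with edgeR 4.0.16 (TMM, robust quasi-likelihood, 1 coefficient per group, all 14 libraries, 9 residual degrees of freedom), with Benjamini-Hochberg adjustment over 11994 genes and 0.05 as the threshold. The script was tested on simulated data. Alternatives were other scaling factors, no filter, DESeq2 1.42.0, limma-voom (limma 3.58.1), fits of only the groups compared, a replicate block, ribosomal RNA gene models removed, and each library left out. No pair of libraries of a group agreed within sampling noise. One list symbol, Ddx39a, was not matched.

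Named members were Rbm38, U2af1, Srsf2 and Sf3b1, and per comparison and family the 3 highest and 3 lowest log2 fold changes that passed, or, with no call, the 2 most abundant members; of each other list up to 2 per direction were eligible. Others were added for context after their values were seen. The members and lists were chosen with earlier results of these data known.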

Additional observations from a re-analysis of the deposited data

Results flagged for a closer look

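In 3 of the 60 tested members, 1 of the 4 relapse libraries stood far from the others. Its gap to its nearest neighbour was more than 0.829 of the whole range of the group, both taken on log2 CPM. Srsf11, an SR-related protein gene, had 158 CPM in relapse replicate 3 and 133 to 135 CPM in the other three, a gap of 0.931 of the range. Hnrnpf, an hnRNP that binds G-rich runs, had 308 CPM in relapse replicate 3 and 411 to 427 CPM in the others, a gap of 0.882. Srsf10 had 74.2 CPM in relapse replicate 4 and 61.4 to 63.1 CPM in the others, a gap of 0.853. Chance flags about 1 in 20 such groups, which is as many as were seen.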

How the results depend on the processing

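Over the alternatives, 1317 values of named members stayed on the same side of the threshold. A further 85 kept the direction and lost the call, 10 gained one, and 0 changed sign where called. Direction was compared only where either fit passed, so it was not checked for values that passed in neither. Members called higher at day 5 (32) numbered 15 to 24 with 1 library left out, and those called lower (2) 0 to 2; at day 14 the 11 higher became 6 to 8 and the 1 lower 0 to 1; in relapse against AG120 the 40 lower became 31 to 40 and the 1 higher 1 to 2, the latter without relapse replicate 4; in relapse against vehicle the 0 lower became 0 to 1. Hnrnpc was called lower in relapse against vehicle (1 member) with upper quartile factors, with no filter and with DESeq2. With no filter on low counts, 22 were higher at day 5 and 7 at day 14. With ribosomal RNA gene models removed these numbers were 22 and 9, and with only the groups compared 43 and 16. DESeq2 called 2 members higher in the difference between the days, and limma-voom 1 lower at day 5. Fits of only the groups compared called 4 lower at day 5 and 2 lower at day 14, 2 higher and 1 lower in the difference between the days, and 2 higher and 1 lower between the vehicle groups. The cause of these shifts was not tested.

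Same-numbered libraries were not paired by the labels. Their deviations from the group means correlated by 0.107, 0.0491 and 0.0171 at day 5 and 0.0685 at day 14. Pairs with different numbers ran from -0.106 to 0.0770 at day 5. At day 14, deviations of the 2 libraries of a group mirror each other, so every pair must give 0.0685 or -0.0685. With the replicate number as a block, 30 members were higher and 2 lower at day 5, 10 and 1 at day 14, and 2 and 39 in relapse against AG120; Rbm38 was the added higher one.

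Depth limits U2af1l4, with as few as 11 counts a library, Srsf12 and Snrpn most. Counting error is not the only limit, since 2 mice a group leave the spread at day 14 resting on all groups together.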
